A study of Mus musculus with 6 samples.

Results

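The respiratory chain set comprised 100 protein-coding genes of the 55401 gene identifiers in the count table, 87 encoded in the nucleus and 13 in the mitochondrial genome. Members were chosen by gene symbol: the Ndufa, Ndufb, Ndufc, Ndufs and Ndufv genes without the Ndufaf assembly factors, Sdha to Sdhd, the Uqcr genes and Cyc1, the Cox4i, Cox5, Cox6, Cox7 and Cox8 genes, the Atp5 genes, and mt-Nd, mt-Co, mt-Cytb and mt-Atp. Complexes were also assigned by symbol. This put 38 nuclear and 7 mitochondrial members in complex I and 4 nuclear members in complex II. Complex III had 9 nuclear members and 1 mitochondrial member. Complex IV had 18 nuclear and 3 mitochondrial members, and complex V had 18 nuclear and 2 mitochondrial members. Another 13 genes had matching symbols but were not protein-coding and were left out.

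Transcripts were counted in 6 libraries of pancreatic islets from male C57BL/6 mice aged about 20 weeks. The 3 libraries labelled KO came from Pdgfra fl/fl mice with Pdx1-Cre, and the 3 control libraries from Pdgfra fl/fl mice without it, so that floxed Pdgfra was shared by both groups. Pdgfra encodes the alpha receptor for platelet-derived growth factor. The Pdx1 promoter is active in the pancreatic lineage, exocrine cells included, and no group with Cre and unfloxed Pdgfra was analysed here, so Cre itself and the deletion cannot be told apart. The libraries are called KO 1 to 3 and control 1 to 3 after the numbers in their titles. Nothing states that each came from a separate animal, so a p-value reflects library-to-library spread, which may be technical.

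The chain works in the inner mitochondrial membrane. Complexes I and II pass electrons from NADH and succinate to ubiquinone, complex III passes them on to cytochrome c, and complex IV passes them to oxygen. Complexes I, III and IV pump protons, and complex V, the ATP synthase, uses the proton gradient to make ATP. In beta cells the ATP made from glucose closes potassium channels and triggers insulin release. All subunits of complex II come from nuclear genes, whereas the other complexes join nuclear and mitochondrial gene products.

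Library totals ran from 18247741 to 25039394 counts in KO and from 15026094 to 25299689 counts in control. Pdgfra had 93, 25 and 125 counts in KO 1, 2 and 3, against 42, 88 and 116 counts in controls 1, 2 and 3. Its log2 fold change was -0.26 (SE 0.34, edgeR adjusted p = 0.869), and counts summed over all exons do not show a deletion of some of them, so this was no check of the labels. The labels name the cell type as beta cell without a sorting step. Ins1 and Ins2 together took 9.48, 11.7 and 10.6% of the counts in KO 1, 2 and 3, against 7.04, 10.4 and 13.3% in controls 1, 2 and 3. A list of 31 acinar genes, which mark the digestive enzyme cells around the islets, took 35.7, 31.4 and 19.6% in KO, against 46.1, 35.4 and 25.9% in control. In such mixed tissue, fewer cells of a type and less RNA per cell cannot be told apart.

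No respiratory chain gene passed the test of KO against control, while nearly all of them had a value slightly below 0. After a filter on low counts, 81 nuclear and 11 mitochondrial members were tested among 14212 genes. With edgeR's quasi-likelihood test, 0 members passed an adjusted p of 0.05, against 10 of all genes (0.0704%, with 0.0633% lower and 0.00704% higher), and the smallest adjusted p of a member was 0.624. DESeq2 and limma-voom also called 0 members. At an unadjusted p under 0.05, edgeR listed 4 of 81 nuclear members (4.94%), all lower in KO, where 2.54% of all genes were listed as lower and 4.83% as higher, and 0 mitochondrial members. At that limit DESeq2 listed 3 nuclear members (3.7%), against 4.92% of all genes in either direction. For limma-voom it was 4 nuclear members (4.94%), against 6.93% of all genes.

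Of the 81 tested nuclear members, 77 (95.1%) had a log2 fold change of KO over control below 0, whereas 52.2% of all genes did. Their median was -0.15, with a range from -0.42 to 0.03, and the median of all genes was -0.01. The other 4 were at most 0.03, among them Cox7a2l, Sdhd and Ndufb2. In 8 members (9.88%) every KO library lay below every control library, against 5.94% of all genes. These were Ndufa11, Ndufa9, Ndufc2, Ndufv2, Uqcrb, Cox5a, Atp5a1 and Atp5d. In 0 members did every KO library lie above every control library, against 7.94% of all genes.

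The small difference between the groups rested on KO 3. For each member, the log2 level in a library was set against its mean over the 6 libraries. The median of these deviations over the nuclear members was -0.06, 0.16 and -0.32 in KO 1, 2 and 3, against 0.14, 0.08 and 0.01 in controls 1, 2 and 3. KO 3 stood low and KO 2 stood as high as the highest control, so the groups overlapped. KO 3 was the lowest library for 77 of 81 nuclear members (95.1%) and for 25.4% of all genes. The highest library was KO 2 for 37 members and control 1 for 35. Without KO 3, the median log2 fold change of the nuclear members was -0.03, with 50 of 81 below 0 and 0 at an unadjusted p under 0.05, against 5.22% of all genes. Without KO 2, it was -0.27, with 81 of 81 below 0 and 33 (40.7%) at an unadjusted p under 0.05, against 9.32% of all genes. None of the 33 passed the adjusted threshold.

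**Figure D1:**
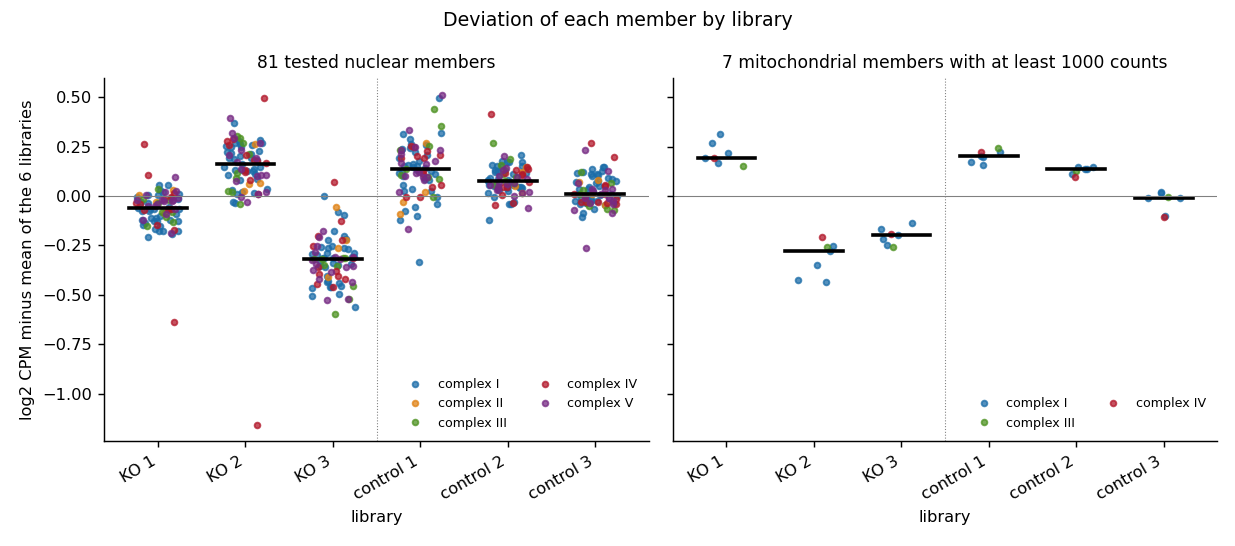
Each point is a member's log2 CPM (counts scaled to the library's size) in a library minus its mean over the 6 libraries, coloured by complex, with black lines at the medians. The left panel holds the 81 tested nuclear members, which were lowest in KO 3 (median -0.32), and the right panel the 7 mitochondrial members with at least 1000 counts, which were lowest in KO 2 (median -0.28). The lowest point on the left is Cox4i2 in KO 2.

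KO 3 had the lowest median in all 5 complexes, while the order of the other libraries differed, with control 1 near the top in every complex but complex II. In KO 3 the median deviation was -0.31 for nuclear members of complex I, -0.24 for complex II, -0.35 for complex III, -0.36 for complex IV and -0.34 for complex V. In KO 2 the medians were 0.17, 0.06, 0.11, 0.17 and 0.14 for complexes I to V. In control 1 they were 0.14, 0, 0.14, 0.18 and 0.16. Complex II, the smallest, thus spread least between libraries.

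In complex I, which oxidises NADH, 36 of 38 nuclear members had a fold change below 0, with a median of -0.17. The 7 nuclear core subunits, which hold the flavin and the iron-sulphur clusters, had a median of -0.17. The other 31 members, mostly accessory subunits, had a median of -0.16. Since complexes were assigned by symbol, the 31 and the 38 include Ndufa4, which is found in complex IV, and its paralogue Ndufa4l2. Ndufc2, an accessory subunit of the membrane arm (ENSMUSG00000030647.8, chr7:97400003-97407802, GRCm38), had 29.0, 32.9 and 26.8 CPM (counts scaled to the library's size) in KO 1, 2 and 3, against 36.1, 35.1 and 34.5 CPM in controls 1, 2 and 3. All 3 KO values lay below the controls, which spread little. The means were 29.6 ± 3.12 CPM in KO and 35.2 ± 0.799 CPM in control (SD, n = 3 each), a log2 fold change of -0.26 with an SE of 0.10 (edgeR adjusted p = 0.633).

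Ndufs7, the core subunit that carries the last iron-sulphur cluster before ubiquinone (ENSMUSG00000020153.14, chr10:80249121-80256794), had 19.1, 21.0 and 15.1 CPM in KO, against 29.3, 21.6 and 20.9 CPM in control. KO 2 reached control 3, so the groups overlapped, and control 1 stood high. Its log2 fold change was -0.37 (SE 0.16, edgeR adjusted p = 0.674). Ndufa9, an accessory subunit of the peripheral arm, had 33.9, 33.4 and 27.5 CPM in KO, against 39.1, 38.1 and 34.4 CPM in control. Ndufv2, a core subunit with an iron-sulphur cluster, had 42.0, 44.5 and 35.7 CPM in KO, against 45.6, 49.4 and 47.1 CPM in control. In both genes KO 3 was the lowest library and the highest KO value came close to the lowest control.

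In complex II, the succinate dehydrogenase of the citric acid cycle, 3 of 4 members were below 0 and the median was -0.10. Sdha, the flavoprotein subunit (ENSMUSG00000021577.14), had 153, 159 and 150 CPM in KO, against 153, 158 and 164 CPM in control. These values lay within the same range, with a log2 fold change of -0.04 with an SE of 0.09 (edgeR adjusted p = 0.931). Sdhb, the iron-sulphur subunit, had 42.6, 44.3 and 32.0 CPM in KO, against 51.1, 46.2 and 41.2 CPM in control, with KO 3 apart from the rest. The membrane anchors Sdhc and Sdhd had log2 fold changes of -0.16 and 0.03. Sdhd had 59.5, 69.8 and 48.5 CPM in KO, on both sides of its 54.7, 60.3 and 58.7 CPM in control.

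In complex III, which hands electrons to cytochrome c, 9 of 9 nuclear members were below 0, with a median of -0.15. Cyc1, cytochrome c1 (ENSMUSG00000022551.8, chr15:76343523-76346260), had the lowest value of all nuclear members. It had 26.7, 27.4 and 19.7 CPM in KO, against 38.3, 34.0 and 26.9 CPM in control. The lowest control lay within the KO values, so the groups overlapped. The means were 24.6 ± 4.25 CPM in KO and 33.1 ± 5.79 CPM in control (SD, n = 3 each), and the log2 fold change was -0.42 (SE 0.16, edgeR adjusted p = 0.628). Cyc1 passed the threshold only when the filter on low counts was left out (log2 fold change -0.42, edgeR adjusted p = 0.0427).

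Uqcrq, a small subunit next to cytochrome b, had 46.2, 57.6 and 32.9 CPM in KO, against 63.6, 56.7 and 48.0 CPM in control. Uqcrc1, a core protein on the matrix side, averaged 46.0 ± 5.49 CPM in KO and 53.3 ± 5.34 CPM in control (SD, n = 3 each). Uqcrb, a small subunit at the ubiquinone pocket, had 44.5, 44.1 and 34.1 CPM in KO, against 46.4, 45.4 and 47.1 CPM in control. In each of the 3 genes KO 3 was lowest, and in Uqcrb KO 1 and KO 2 stood just under the controls. A pseudogene copy of Uqcrb could share its reads.

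In complex IV, cytochrome c oxidase, 13 of 18 nuclear members were tested, 12 of them below 0, with a median of -0.13. Cox5a, a matrix-side subunit, averaged 12.5 ± 1.93 CPM in KO and 14.9 ± 1.27 CPM in control (SD, n = 3 each). Its highest KO library and lowest control both had 13.7 CPM at the digits given. Cox4i1, the ubiquitous form of subunit 4, had 99.5, 117 and 78.0 CPM in KO, against 122, 113 and 102 CPM in control. Cox6b1, on the side that binds cytochrome c, had 55.0, 70.1 and 47.6 CPM in KO, against 73.8, 68.5 and 60.5 CPM in control. For Cox4i1 and Cox6b1, KO 2 lay among the controls and KO 1 and KO 3 below them.

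Several subunits of complex IV come in tissue forms, and the islet libraries held mainly the ubiquitous ones. On the scale of RPKM (CPM per kilobase of summed exon length), Cox8a averaged 108 over the 6 libraries, the highest level of any nuclear member. The muscle form Cox8b had 0 to 3 counts per library and the testis form Cox8c had 0 in every library. Cox4i2, the form known from lung, averaged 1.12 RPKM against 67.9 RPKM for Cox4i1. Cox7a1, the heart and muscle form, had 3 to 7 counts per library, whereas Cox7a2 averaged 54.9 RPKM. Cox7b2 and Cox6b2, known from testis, had at most 2 and 4 counts in a library. Cox7a2l, a homologue of Cox7a2, averaged 75.4 RPKM and had a log2 fold change of 0.03.

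Cox6a2 was the exception. This form of subunit 6a is known from heart and skeletal muscle (ENSMUSG00000030785.8, chr7:128205435-128206387), and it averaged 24.9 RPKM over the 6 libraries, where its ubiquitous counterpart Cox6a1 averaged 83.9 RPKM. Cox6a2 had 10.6, 23.2 and 15.1 CPM in KO, against 16.4, 16.5 and 19.8 CPM in control. KO 1 was the lowest and KO 2 the highest of the 6, and the means of 16.3 ± 6.38 CPM in KO and 17.6 ± 1.93 CPM in control (SD, n = 3 each) differed by less than that spread (log2 fold change -0.13, SE 0.24, edgeR adjusted p = 0.911). The ratio of Cox6a2 to Cox6a1 per length was 0.193, 0.388 and 0.351 in KO, against 0.255, 0.271 and 0.338 in control. Muscle transcripts were few: Myh4, Tnnt3 and Myl2 had 0 counts in every library and Ckm at most 4. Mylpf had 8 to 26 counts and Acta1 8 to 21 counts in a library. The cell source of Cox6a2 was not tested. Over the 9 muscle genes listed, the summed level was 1.60 to 2.18 CPM in KO, against 1.28 to 1.86 CPM in control.

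A second such pair lies among the Nduf genes. Ndufa4, named for complex I but found in complex IV, averaged 35.2 RPKM, and its paralogue Ndufa4l2, known as induced in hypoxia, averaged 1.76 RPKM. The ratio of Ndufa4l2 to Ndufa4 per length was 0.0512 ± 0.00818 in KO and 0.0502 ± 0.00895 in control (SD, n = 3 each).

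In complex V, 17 of 17 tested nuclear members were below 0, with a median of -0.14. An additional gene identifier with the symbol Atp5o had 0 counts in every library and was not tested. Atp5b, the catalytic beta subunit, had the highest level of the complex at 88.7 RPKM. It had 362, 395 and 314 CPM in KO, against 423, 389 and 372 CPM in control, with KO 2 among the controls. Atp5a1, the alpha subunit, had 233, 238 and 209 CPM in KO, against 257, 241 and 241 CPM in control. Its groups did not overlap, but KO 2 and the lower controls lay close, with a log2 fold change of -0.12 with an SE of 0.10 (edgeR adjusted p = 0.809).

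The proton-carrying ring of complex V is made of subunit c, which 3 genes encode with the same mature protein. Per length, Atp5g3 averaged 36.0 RPKM, Atp5g2 16.8 RPKM and Atp5g1 8.14 RPKM. The order of Atp5g1 and Atp5g2 depends on the length used, since by CPM Atp5g1 was the higher, and Atp5g2 averaged 27.1 ± 4.49 CPM in KO and 29.3 ± 1.75 CPM in control (SD, n = 3 each). Atp5g1 (ENSMUSG00000006057.15, chr11:96068852-96075670) had 36.3, 39.3 and 30.3 CPM in KO, against 49.7, 45.4 and 38.8 CPM in control. KO 2 was just above control 3 and the other KO values were below every control. The means were 35.3 ± 4.57 CPM in KO and 44.7 ± 5.51 CPM in control (SD, n = 3 each), a log2 fold change of -0.34 with an SE of 0.13 (edgeR adjusted p = 0.624). Atp5g3 and Atp5g2 had log2 fold changes of -0.20 and -0.11. A transcript of Gm10175 matched Atp5g2 at 100% of its bases over 441 bases, so reads of Atp5g2 may be split. In all, 13 of 87 nuclear and 8 of 13 mitochondrial members had a near copy among annotated transcripts.

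**Figure D2:**
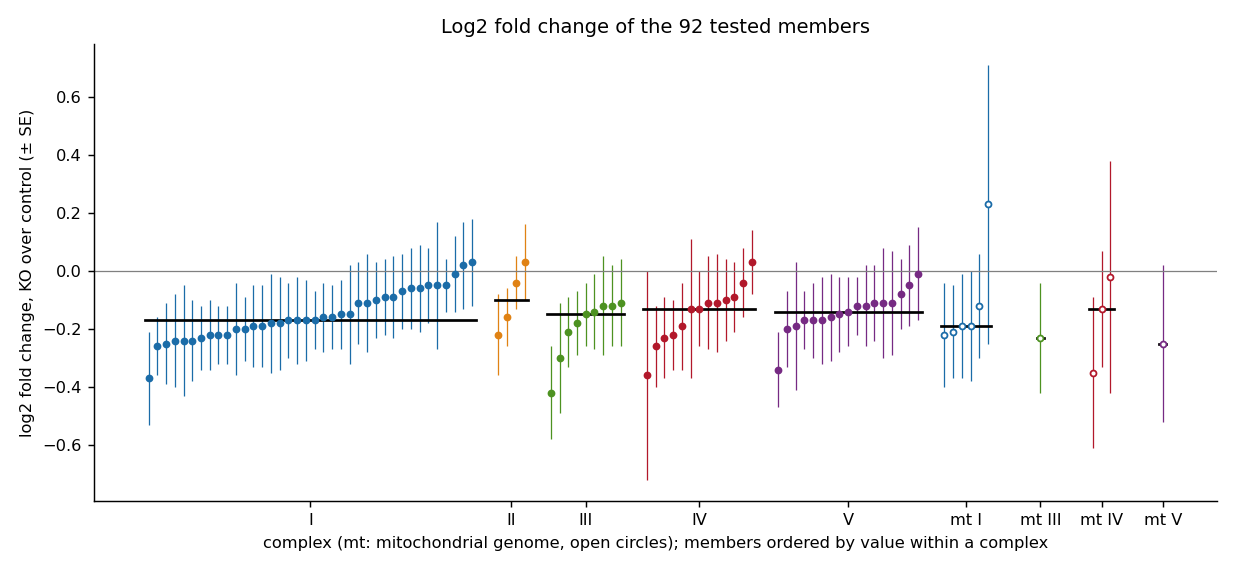
Log2 fold change of KO over control for the 92 tested members, grouped by complex, with bars of 1 SE from edgeR and black lines at the medians. Nuclear members (filled) had medians of -0.17, -0.10, -0.15, -0.13 and -0.14 for complexes I to V and lay below 0 in 77 of 81 cases.

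Levels per length differed far more between members than between groups. Tested nuclear members ran from 1.12 to 108 RPKM with a median of 22.4. The highest in each complex were Ndufa1 at 96.6, Sdhd at 47.6, Uqcr11 at 57.9 in KO and 62.1 in control, Cox8a at 108 and Atp5b at 88.7 RPKM. Exon lengths were summed over all annotated transcripts, which lowers the RPKM of genes with a long summed length, such as Atp5g1 with 4912 bases and Ndufb2 with 5628. Of the nuclear members, 77 had at least 100 counts in every library.

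Of the 13 mitochondrial members, 7 carried nearly all counts and all 7 had a fold change below 0. mt-Co1, the catalytic subunit of complex IV (ENSMUSG00000064351.1), had 3510, 2660 and 2690 CPM in KO, against 3580, 3280 and 2850 CPM in control. mt-Cytb, cytochrome b of complex III, had 2380, 1790 and 1790 CPM in KO, against 2530, 2340 and 2130 CPM in control. In both genes KO 1 stood among the controls, and KO 2 and KO 3 stood below them. Their log2 fold changes were -0.13 (SE 0.20, edgeR adjusted p = 0.890) and -0.23 (SE 0.19, edgeR adjusted p = 0.794).

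The complex I subunits of the mitochondrial genome, which build its proton-pumping arm, followed the same order. mt-Nd1 had 1320, 908 and 1010 CPM in KO, against 1350, 1270 and 1150 CPM in control. mt-Nd2 had 924, 566 and 683 CPM in KO, against 880, 847 and 760 CPM in control. mt-Nd4 had 958, 716 and 718 CPM in KO, against 961, 944 and 867 CPM in control. KO 2 was the lowest library in all 3 genes, and KO 1 lay at or near the top. mt-Nd5 and mt-Nd6 had log2 fold changes of -0.12 and -0.19. mt-Nd6 lies on the opposite strand, and the strand setting of the counts is not given in the sources used here.

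The library with the lowest median thus differed by genome of origin, whereas the median of KO 3 lay below every control for both genomes. The median deviation over the 7 mitochondrial members was 0.19, -0.28 and -0.20 in KO 1, 2 and 3, against 0.21, 0.13 and -0.01 in controls 1, 2 and 3. KO 2 was lowest for 6 of the 7 genes, although it was highest for 37 of the 81 nuclear ones. Without KO 1, the median log2 fold change of the 11 tested mitochondrial members was -0.38, against -0.19 with all libraries. In that edgeR fit 4 of them (36.4%) had an unadjusted p under 0.05, against 8.32% of all genes, and 0 passed the adjusted threshold. Without KO 2 the median was -0.06, with 0 at an unadjusted p under 0.05, against 9.32% of all genes.

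Summed over the nuclear members, the level was 3780, 4360 and 3180 CPM in KO 1, 2 and 3, against 4330, 4120 and 3970 CPM in controls 1, 2 and 3. Summed over the 7 mitochondrial members, it was 11400, 8190 and 8630 CPM in KO, against 11500, 10800 and 9620 CPM in control. The ratio of mitochondrial to nuclear level was 3.01, 1.88 and 2.72 in KO, against 2.65, 2.62 and 2.42 in control. The controls kept close together, and the KO libraries lay on both sides of them. The mean ratio was 2.54 ± 0.588 in KO and 2.57 ± 0.125 in control (SD, n = 3 each), a difference smaller than the spread between KO libraries.

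**Figure D3:**
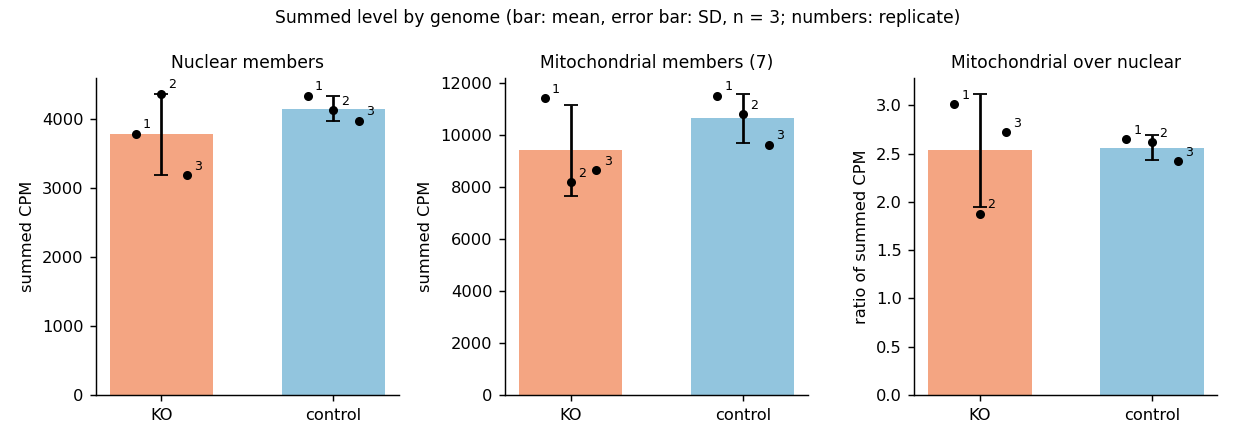
Summed CPM of the nuclear members, summed CPM of the 7 mitochondrial members with at least 1000 counts, and their ratio. Bars are means, error bars SDs (n = 3 each) and points the numbered libraries. KO 2 had the highest nuclear sum (4360), the lowest mitochondrial sum (8190) and the lowest ratio (1.88).

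The other 6 mitochondrial members had very few counts and lie next to each other in the genome, from mt-Co2 to mt-Nd4l (chrM:7013-10173, GRCm38). mt-Co2 had 51, 11 and 28 counts in KO, against 15, 17 and 50 counts in control, where mt-Co1 beside it had 87604, 42610 and 70681 counts in KO, against 44684, 56339 and 86606 counts in control. mt-Co3 had 53, 20 and 43 counts in KO, against 27, 43 and 56 counts in control, and mt-Atp6 had 26, 17 and 22 counts in KO, against 12, 20 and 39 counts in control. mt-Nd3, mt-Atp8 and mt-Nd4l had at most 31, 8 and 7 counts in a library. In every library of both groups the block was low, and mt-Nd4 after it was high again.

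Most genes of this block are repeated on chromosome 1, on the minus strand, as annotated pseudogenes. For mt-Atp8, which was as low, no annotated near copy was found. Gm28661 matched mt-Co2 over 681 of its 684 bases with 0 mismatches. Gm10925 matched mt-Atp6 over 678 bases, Gm28437 matched mt-Co3 over 783 bases and Gm10222 matched mt-Nd4l over 294 bases, each with 0 mismatches. Gm28439 matched mt-Nd4 with 0 mismatches over 876 bases, which is 63.6% of that gene. The sequences of mt-Nd3 (chrM:9459-9578, plus strand) and its copy Gm28438 (chr1:24613000-24613119, minus strand) are printed over their first 120 bases from GENCODE vM21 transcripts to show how alike they are. Capitals mark the position at which they differ over all 345 aligned bases, position 3 counted from the 5′ end.
mt-Nd3: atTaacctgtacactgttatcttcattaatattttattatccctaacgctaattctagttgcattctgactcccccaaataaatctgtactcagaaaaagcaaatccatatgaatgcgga
Gm28438: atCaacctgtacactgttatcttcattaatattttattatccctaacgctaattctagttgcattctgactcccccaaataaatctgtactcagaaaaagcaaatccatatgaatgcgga
The chromosome 1 copies had few counts of their own, from 1 to 63 in a library. How reads that map to several places were counted is not given in the sources used here, and its part in these low counts was not tested. The values of the 6 genes, among them a log2 fold change of 0.23 for mt-Nd3 (SE 0.48) and -0.35 for mt-Co3 (SE 0.26), are therefore uncertain. mt-Nd4 was kept among the genes with many counts although 63.6% of it matches a copy. So were mt-Co1, with a near copy at 97.6% identity over 1545 bases, and mt-Nd5, with one at 95.2% over 52.3% of its transcript. Any effect of these copies on the levels of the 3 genes was not tested.

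**Figure D4:**
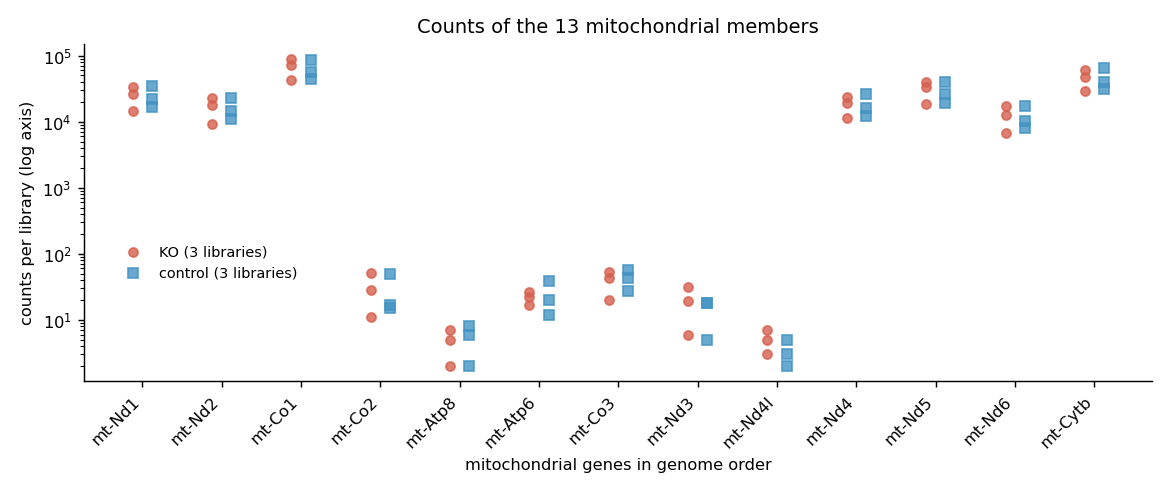
Counts per library on a log axis for the 13 mitochondrial members in genome order, with KO libraries as circles and control libraries as squares. The 6 genes from mt-Co2 to mt-Nd4l had at most 56 counts in any library, and the other 7 had at least 6645.

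Other measures also set KO 3 and KO 2 apart. A ribosomal RNA locus, CT010467.1, took 5.36, 12.6 and 18.5% of the counts in KO 1, 2 and 3, against 4.38, 3.32 and 4.51% in controls 1, 2 and 3 (exact permutation test, two-sided, p = 0.1, which is the lowest that 3 against 3 allows). The means were 12.2 ± 6.57% in KO and 4.07 ± 0.657% in control (SD, n = 3 each). With the log2 level of this locus as a covariate, the median of the nuclear members was -0.10 with 70 of 81 below 0. The median of the mitochondrial members turned to 0.10, with 1 of 11 below 0. By share of counts, every KO value of the locus was above every control value. On the centred log2 scale of the covariate, KO 1 (-0.338) lay just below control 1 (-0.320). KO 2 and KO 3 lay above every control on that scale too, so the locus and the genotype cannot be fully told apart.

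The acinar genes moved with the nuclear members in part. Their median deviation was 0.15, 0.19 and -0.72 in KO 1, 2 and 3, against 0.82, 0.08 and -0.52 in controls 1, 2 and 3, so KO 3 and control 3 were both low. With an acinar score as a covariate, the nuclear median was -0.10 with 77 of 81 below 0, and the mitochondrial median was -0.15. KO 2 was the lowest library for 7 of 8 fibroblast, 7 of 7 endothelial and 7 of 8 macrophage genes. The summed fibroblast level was 171, 44.5 and 224 CPM in KO, against 187, 287 and 144 CPM in control. The summed endothelial level was 461, 282 and 518 CPM in KO, against 417, 467 and 507 CPM in control. The part of these cells in the mitochondrial values of KO 2 was not tested.

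Fold changes also ran with gene length. The tested protein-coding genes were put into 4 length classes of equal size. In the shortest class, with 255 to 2927 exon bases, the median log2 fold change was -0.09 and 70.5% were below 0. In the longest class, with 7040 to 123179 bases, the median was 0.09 and 29.9% were below 0. Of the 81 nuclear members, 62 were in the shortest class and 1 in the longest, and their median length was 1675 bases, against 4594 for all tested protein-coding genes. Within the shortest class the members' median was -0.16, and within the next it was -0.14 for 13 members, where all genes had -0.04. The shortest class had a median deviation of -0.16 in KO 3 and the longest 0.19. The part of gene length in the members' values was not tested.

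**Figure D5:**
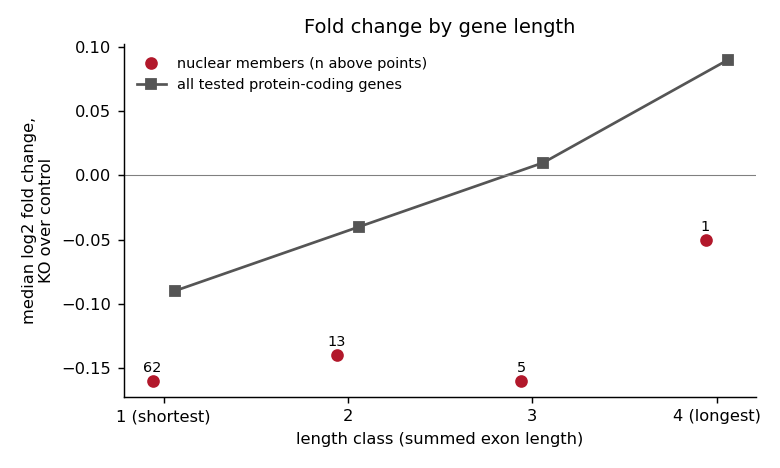
Median log2 fold change of KO over control in 4 classes of summed exon length, for nuclear members (circles, with their number above) and for all tested protein-coding genes (squares). All genes go from -0.09 to 0.09 with length, and the members' medians lie below theirs in each class. Class 3 holds only 5 members and class 4 only 1, and lengths were not matched within a class.

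Promoters of the nuclear members were searched for short motifs of factors known to drive respiratory chain genes, in the 250 bases before the start of 69 members with an entry in the RefSeq table for GRCm38.p6. The core of the NRF1 motif, TGCGCA, which reads the same on both strands, was in 14 of 69 (20.3%), against 7.36% of 27025 genes. This core was kept after the results of longer motifs had been seen, so its share is a description only. The GABPA motif CCGGAAG, searched on both strands, was in 12 (17.4%), against 7.83%. The SP1 motif GGGCGG, searched on both strands, was in 26 (37.7%), against 35.4%. None of the 3 motifs contains another. These matches describe letters and not binding.

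Of the members with the NRF1 core, the 4 with the highest level per length are printed to show where it lies, with the core in capitals. They are at chr5:115348959-115349208 for Cox6a1, chr13:73328483-73328732 for Ndufs6, chr13:74350241-74350490 for Sdha and chr9:50603850-50604099 for Sdhd, all on the minus strand. The first base of the core lies 118 bases before the start in Cox6a1 and 128 in Ndufs6. Sdha has the core at 56 and 11 bases and Sdhd at 189 and 80 bases before the start.
Cox6a1: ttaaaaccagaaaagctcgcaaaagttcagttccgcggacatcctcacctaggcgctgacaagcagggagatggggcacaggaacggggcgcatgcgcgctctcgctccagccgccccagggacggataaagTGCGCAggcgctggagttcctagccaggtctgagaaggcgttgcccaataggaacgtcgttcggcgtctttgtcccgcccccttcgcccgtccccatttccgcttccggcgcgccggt
Ndufs6: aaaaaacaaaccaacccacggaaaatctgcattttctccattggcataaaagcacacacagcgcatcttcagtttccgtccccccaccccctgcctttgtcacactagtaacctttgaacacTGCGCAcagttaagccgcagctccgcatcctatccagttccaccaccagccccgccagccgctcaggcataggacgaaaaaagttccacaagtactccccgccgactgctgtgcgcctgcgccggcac
Sdha: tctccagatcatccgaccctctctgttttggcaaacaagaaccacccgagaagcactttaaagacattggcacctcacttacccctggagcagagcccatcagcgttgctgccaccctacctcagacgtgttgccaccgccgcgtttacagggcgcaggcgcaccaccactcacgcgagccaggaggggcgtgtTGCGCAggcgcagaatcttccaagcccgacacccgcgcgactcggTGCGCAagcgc
Sdhd: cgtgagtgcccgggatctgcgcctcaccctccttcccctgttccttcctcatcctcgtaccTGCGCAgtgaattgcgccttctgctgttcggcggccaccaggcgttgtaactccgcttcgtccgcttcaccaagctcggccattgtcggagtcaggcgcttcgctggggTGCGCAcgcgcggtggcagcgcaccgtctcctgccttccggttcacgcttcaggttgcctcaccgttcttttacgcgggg
Cox6a1, the ubiquitous form of subunit 6a, had 56.8, 61.8 and 44.5 CPM in KO, against 66.7, 63.1 and 60.6 CPM in control. Ndufs6, an accessory subunit of complex I, had 30.8, 34.5 and 21.4 CPM in KO, against 35.8, 34.3 and 28.2 CPM in control. KO 3 was lowest in both genes, as it was in Sdha and Sdhd. The median log2 fold change was -0.12 for the 14 tested members with the core, 13 of them below 0, and -0.16 for the 51 tested members without it, 49 of them below 0.

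The factors that bind such motifs and govern the mitochondrial genome showed no common direction. Of 28 such regulators, 13 were below 0, with a median of 0.02 and 0 past the threshold in edgeR. An unadjusted p under 0.05 was found for 2 of them (7.14%), against 7.37% of all genes. Nrf1 had a log2 fold change of 0.02 (SE 0.12), Gabpa -0.05 (SE 0.10), the coactivator Ppargc1a -0.16 (SE 0.17) and Tfam, which packages mitochondrial DNA, -0.14 (SE 0.10). Twnk, the mitochondrial helicase, had 9.97, 10.4 and 9.59 CPM in KO, against 8.26, 8.10 and 7.35 CPM in control. Its KO values lay above every control, with a log2 fold change of 0.34 with an SE of 0.12 (edgeR adjusted p = 0.600). Pprc1, a coactivator of the same family as Ppargc1a, had a log2 fold change of -0.28 with an SE of 0.12 (edgeR adjusted p = 0.674).

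Most genes that work with the chain also had values below 0, and none of the 3 lists held a called gene. Of 46 tested assembly factors, 32 were below 0 with a median of -0.06, and 0 passed in edgeR or had an unadjusted p under 0.05. Of 17 citric acid cycle genes, 14 were below 0 with a median of -0.11. Of 23 electron carriers and nucleotide transporters, 18 were below 0 with a median of -0.12. In each of the last 2 lists 0 genes passed in edgeR and 3 had an unadjusted p under 0.05, which is 17.6% of the citric acid cycle genes and 3 of the 23 carriers, against 7.37% of all genes. Cs, citrate synthase, had 51.2, 51.5 and 45.9 CPM in KO, against 66.4, 58.4 and 55.9 CPM in control, with no overlap (log2 fold change -0.28, SE 0.10, edgeR adjusted p = 0.600). Cycs, cytochrome c, had 19.7, 23.0 and 17.0 CPM in KO, against 23.5, 24.8 and 22.4 CPM in control (log2 fold change -0.25, SE 0.12, edgeR adjusted p = 0.706).

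Gpd2 went the other way. It encodes the mitochondrial glycerol-3-phosphate dehydrogenase, which feeds electrons from cytosolic NADH to ubiquinone and is abundant in beta cells. Gpd2 had 135, 128 and 151 CPM in KO, against 85.4, 102 and 105 CPM in control, with every KO value above every control. Its log2 fold change was 0.50 (SE 0.11, edgeR adjusted p = 0.353), so it did not pass the main test. It passed in DESeq2 (log2 fold change 0.49, adjusted p = 0.0409) and without the filter on low counts (edgeR adjusted p = 0.0116).

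Among 14 genes of mitochondrial protein quality control, 12 were below 0, with a median of -0.17, and 1 passed, against 0.0704% of all genes. At an unadjusted p under 0.05 edgeR listed 3 of them (21.4%), all lower in KO, where 2.54% of all genes were listed as lower. Every KO library lay below every control library for 5 of the 14 (35.7%), against 5.94% of all genes. For 0 of them did every KO library lie above, against 7.94%. Atf5, a transcription factor of the mitochondrial unfolded protein response, fell to 52.4, 46.4 and 38.6 CPM in KO, against 156, 137 and 152 CPM in control (log2 fold change -1.70, SE 0.13, edgeR adjusted p = 0.00129). With the ribosomal RNA locus as a covariate its log2 fold change was -1.49 and it no longer passed (edgeR adjusted p = 0.458). The matrix chaperones Hspa9 and Hspd1, targets of that response, had log2 fold changes of -0.35 (SE 0.10, edgeR adjusted p = 0.537) and -0.27 (SE 0.09, edgeR adjusted p = 0.591). Hspa9 had 132, 126 and 114 CPM in KO, against 169, 157 and 149 CPM in control.

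The ribosomal protein genes, which are also short, shared the low values in KO 3. Of 77 mitochondrial ribosomal protein genes, 70 were below 0 with a median of -0.13, and KO 3 was the lowest library for 70. Of 80 cytosolic ribosomal protein genes, 78 were below 0 with a median of -0.25, and KO 3 was the lowest library for 78. In both lists 0 genes passed in edgeR, against 0.0704% of all genes, and 0 had an unadjusted p under 0.05, against 7.37%. Every KO library lay below every control library for 10 of the 77 mitochondrial ribosomal protein genes, against 5.94% of all genes. The same held for 1 of the 80 cytosolic ones. In 0 genes of either list did every KO library lie above every control library, against 7.94% of all genes. The cytosolic list had a median deviation of 0.04, 0.09 and -0.52 in KO 1, 2 and 3, against 0.38, 0.12 and -0.11 in controls 1, 2 and 3.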

How the data were processed

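An mRNA kit was used for the 6 islet libraries, as the labels' protocols state. The authors deposited raw read counts per gene, together with a summed exon length. Builds GRCm38.p6 and mm10, the aligner STAR 2.7.9 and the counter featureCounts 2.0.0 are named in the submitters' processing notes. Which annotation release, strand option and rule for multiply mapping reads applied is not given in the sources used here. Overlapping, antisense or near-identical genes may therefore share counts. An unexplained suffix ends the column name of every KO library and of no control library. Whatever it marks cannot be told apart from the genotype.

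Groups came from the sample titles. The test was edgeR 4.0.16 in R 4.3.3 (quasi-likelihood, TMM factors, genotype as the single term). Genes were filtered by filterByExpr with minimum count 10 and minimum total 15, and two-sided p-values got a Benjamini-Hochberg adjustment across 14212 genes, with 0.05 as the threshold. The common biological coefficient of variation was 0.140. CPM used TMM-scaled library sizes, and RPKM is CPM per kilobase of the deposited length. Shares of counts had 95% Wilson bounds within 0.0252 percentage points, for counting error only. The fit was tested on simulated counts. Alternatives were RLE factors, no filter, a replicate block, each library left out, covariates for the ribosomal RNA locus and for acinar genes, scaling without acinar, ribosomal RNA and mitochondrial genes, DESeq2 1.42.0 and limma-voom 3.58.1.

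A gene name table gave symbols to 55141 of 55401 identifiers, and GENCODE vM21 gave gene types. Near copies were BLAST 2.17.0 matches to vM21 transcripts with at least 95% identity over at least 50% of the transcript. RefSeq matched 86 of 87 nuclear members, and 69 had a promoter. Longer NRF1 and YY1 motifs were searched first and are not reported here, and the NRF1 core was kept in their place after their results were seen. Named members were all mitochondrial ones, up to 4 per complex with the smallest p, the highest per length in each complex, tissue forms, and up to 3 above 0. Each pathway list gave up to 3 with the smallest p, besides Cycs, Tfam, Nrf1, Gabpa, Ppargc1a, Lrpprc and Atf5. Ndufa11, Atp5a1, Atp5g2 and Ndufs6 were named after their values were seen, and some results are not reported here. Members and lists were chosen with earlier results of these data known. Python 3.11.15 with pandas 2.3.3, NumPy 2.4.6 and SciPy 1.17.1 made the tables, and matplotlib 3.10.9 drew the figures.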

Additional observations from a re-analysis of the deposited data

How the results depend on the processing

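Over all genes, 10 passed, 9 of them lower in KO. The count was 300 without the low-count filter (126 lower, 174 higher), 36 with the replicate block (25 lower, 11 higher), 44 with the acinar covariate (30 lower, 14 higher), 49 in DESeq2 (30 lower, 19 higher), 6 in limma-voom (5 lower, 1 higher), 0 with the ribosomal RNA covariate (214 at an unadjusted p under 0.05), and 2 to 6 with 1 library left out. RLE and the scaling without acinar, ribosomal RNA and mitochondrial genes gave 10 each. Members called were 1 (Cyc1) without the filter and 0 to 0 with 1 library left out. The count of nuclear members below 0 was 50 without KO 3 and ran from 50 to 81 with 1 library left out, while their median stayed below 0 under all 14 alternatives. For mitochondrial members the count below 0 was 1 and the median 0.10 with the ribosomal RNA covariate, against 9 to 11 and -0.38 to -0.06 with 1 library left out.

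Of 75 named genes, 47 kept their direction under all 14 alternatives. With the ribosomal RNA covariate, mt-Co1 was 0.10, mt-Co2 0.75, mt-Co3 0.05, mt-Cytb 0.02, mt-Nd1 0.06, mt-Nd2 0.16, mt-Nd4 0.07, mt-Nd5 0.16 and mt-Nd6 0.21, and Cox4i2 0.03, Gabpa 0.10, Ndufa1 0.02, Ndufa4l2 0.10, Ndufaf4 0.01 and Ndufb2 -0.01. Ndufb2 was also -0.01 with the acinar covariate and in limma-voom. With 1 library left out, Atp5g2 ran from -0.23 to 0.01, Cox6a2 from -0.46 to 0.10, Cox7a2 from -0.29 to 0.02, Cox7a2l from -0.02 to 0.14, Cox7b from -0.30 to 0.07, Cox8a from -0.17 to 0.05, Gabpa from -0.10 to 0.01, Ndufa1 from -0.22 to 0.05, Ndufa4 from -0.22 to 0.07, Ndufa4l2 from -0.10 to 0.05, Ndufb2 from -0.10 to 0.12, Ndufs6 from -0.32 to 0.00, Nrf1 from -0.02 to 0.09, Pdgfra from -0.59 to 0.04, Sdhd from -0.10 to 0.16, Uqcr11 from -0.30 to 0.03, mt-Co2 from -0.54 to 0.25 and mt-Nd3 from -0.26 to 0.62. The cause was not tested.

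Libraries with the same number had correlations of 0.16, -0.16 and 0.14 between their deviations, and KO 2 correlated best with control 1, so the numbers do not show a pairing. With the replicate block, 0 members were called and the medians were -0.16 for nuclear and -0.22 for mitochondrial members. The number of libraries, 3 a group, limits the precision of single genes.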
